A study of Mus musculus with 60 samples.

Results

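The Id genes Id1, Id2, Id3 and Id4 encode the inhibitors of DNA binding, and they were described across all 20 groups of 2 RNA-seq count tables of mouse fibroblasts. The members were chosen by name, as the rows whose gene identifier maps to one of these 4 symbols, and all 4 of 4 were found among the 56980 genes that each table lists. All 4 passed the filter on low counts in both tables, with between 44 and 8103 counts in a library.

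Id proteins carry a helix-loop-helix but no DNA-binding stretch, so they pair with E proteins and other basic helix-loop-helix factors and keep them off DNA. Bone morphogenetic proteins (BMPs) signal through type I receptors such as ALK2, the product of Acvr1, to SMAD1 and SMAD5, and the Id genes are classic direct targets of that branch. TGFb signals through the type I receptor ALK5, the product of Tgfbr1, to SMAD2 and SMAD3, and in fibroblasts it is known for driving matrix and contractile genes.

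The study asked how partial reprogramming and inhibitors of TGFb receptors act on cells of Ercc1 d/- mice, which age prematurely because a DNA repair nuclease is defective. Each group held 3 libraries. In the inhibitor table, tail tip fibroblasts of 4-week-old female ERCC1 (d/-) mice (D/KO) were left as controls or received Repsox, Vactosertib, DMH-1 or A83-01 for 3 days. The study names doses of 0.1 uM for Repsox and Vactosertib and 1 uM for DMH-1 and A83-01 in its methylation assay, and states that DNA and RNA came from the same samples. It presents Repsox and A83-01 as ALK5 inhibitors, DMH-1 as an ALK2 inhibitor and Vactosertib as acting on both receptors.

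The same table held control tail tip and control skin fibroblasts of 14-week-old female ERCC1 (+/+) mice (WT), and tail tip cells of 22-week-old female 4FJ (+/-) OCT4-GFP mice labelled TGFB, whose treatment is not explained further and which have no control of their own. In the reprogramming table, tail tip fibroblasts of 8-week-old male 4FJ ERCC1 (d/-) mice (D/KO) or 22-week-old female 4FJ (+/-) OCT4-GFP mice (WT) were taken at day 0, 2 or 4. The labels name an OCT4-GFP reporter for the WT line only, so the reprogrammable lines differ in more than Ercc1. Days 2 and 4 had 2 ug/ml doxycycline, which switches on a transgene of the 4 factors OCT4, SOX2, KLF4 and MYC, and parallel groups had VC, that is 50 ug/ml ascorbic acid with 3 uM CHIR-99201, also at day 0. All cells were kept at 3% oxygen and used within 3 passages. The labels do not say whether replicates came from separate animals or cultures, so the p-values measure only the spread between these libraries, which may be technical.

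Depth was between 17102639 and 30599138 counts a library in the inhibitor table and between 16538374 and 18484951 in the reprogramming table. The second Repsox library, the second DMH-1 library and the first WT skin library stood apart from their replicates, and values of the Id genes, and counts of BMP and TGFb targets that moved, are given with and without them. All 10 of 10 fibroblast markers were above 1 CPM (TMM-scaled counts at a common depth) in all 20 groups. The 5 endothelial markers were also present in the D/KO cultures, with a summed level of 290 to 332 CPM in the D/KO controls, 73.4 to 91.2 in the WT controls, 586 to 710 in D/KO at day 0 and 14.6 to 17.3 in WT at day 0. Such a sum can be carried by a single gene, and its members did not always move in the same direction. Ercc1 itself was at 20.4 to 20.9 CPM of the library total in the D/KO controls and at 12.9 to 20.8 in the WT controls. Across the reprogramming table it lay at 8.79 to 17.3 CPM in D/KO and 16.3 to 31.4 CPM in WT. A count over the whole gene does not read the truncated allele, so Ercc1 levels do not check the labels of the inhibitor table. RNA was taken from whole cultures, so fewer cells that express a gene and less of its RNA per cell cannot be told apart.

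In GRCm39, the build of the count tables, Id1 (ENSMUSG00000042745) lies on chromosome 2 at 152578171 to 152579330 on the plus strand, and Id2 (ENSMUSG00000020644) on chromosome 12 at 25143798 to 25147139 on the minus strand. Id3 (ENSMUSG00000007872) lies on chromosome 4 at 135870808 to 135873066 and Id4 (ENSMUSG00000021379) on chromosome 13 at 48414704 to 48419502, both on the plus strand. The tables give exon lengths of 1160, 2438, 1791 and 3849 bases in the same order. In GENCODE M39 each of the 4 overlaps an antisense long non-coding RNA, namely Gm75058 at Id1, Gm36287 and Gm59395 at Id2, Gm57159 at Id3 and Gm49291 at Id4, and the strand setting of the counting is not stated, so reads of the pair cannot be told apart. The counts assigned to the antisense genes reached at most 3 for Gm36287, 15 for Gm57159 and 3 for Gm49291 in any library, and Gm75058 and Gm59395 were not analysed here.

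The 250 bases before the start site are shown for reference, and whether they take part in any change of the Id genes was not tested. The windows are from RefSeq, build GRCm38.p6, and 3 of the 4 genes had one (not Id1). Capitals mark each match, on either strand, to GGCGCC (a GC-rich element bound by SMAD1 and SMAD5), to CAGAC (the SMAD binding element) or to CANNTG (the E-box bound by the factors that Id proteins hold back). Id2 is chr12:25096093-25096342 on the minus strand, Id3 is chr4:136143572-136143821 on the plus strand and Id4 is chr13:48260866-48261115 on the plus strand.
Id2: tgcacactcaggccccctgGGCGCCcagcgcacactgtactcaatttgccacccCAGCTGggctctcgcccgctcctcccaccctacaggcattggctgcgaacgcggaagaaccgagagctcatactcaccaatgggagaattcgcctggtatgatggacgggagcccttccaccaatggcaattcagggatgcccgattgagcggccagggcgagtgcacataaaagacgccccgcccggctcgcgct
Id3: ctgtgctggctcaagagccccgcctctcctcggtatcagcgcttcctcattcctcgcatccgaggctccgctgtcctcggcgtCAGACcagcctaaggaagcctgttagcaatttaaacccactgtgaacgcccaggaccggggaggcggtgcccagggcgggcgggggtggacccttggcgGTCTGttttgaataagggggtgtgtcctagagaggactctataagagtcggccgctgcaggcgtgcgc
Id4: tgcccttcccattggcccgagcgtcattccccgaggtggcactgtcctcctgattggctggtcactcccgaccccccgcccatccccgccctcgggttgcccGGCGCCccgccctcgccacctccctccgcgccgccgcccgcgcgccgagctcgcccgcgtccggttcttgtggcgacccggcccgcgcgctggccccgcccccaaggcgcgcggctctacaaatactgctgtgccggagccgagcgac
GGCGCC was found 1 time in the Id2 and 1 time in the Id4 window, at 231 and 148 bases before the start, and in 9.59% of all 32851 windows of this length. CAGAC was found 2 times in the Id3 window, at 167 and 68 bases before the start, and in 42.2% of all windows. The 1 E-box, CAGCTG at 196 bases before the start of Id2, belongs to a motif present in 66.2% of windows. GC content was 62.8% for Id2, 62.8% for Id3 and 75.6% for Id4, beside a median of 52.4% over all windows.

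In untreated cells the 4 genes stood at different levels. Per length, as counts scaled to depth and exon length (RPKM), the D/KO controls of the inhibitor table held 52.6 for Id3, 16.8 for Id1, 5.08 for Id2 and 4.51 for Id4 (means, n = 3). The order in the WT controls was Id3 at 107, Id1 at 43.2, Id2 at 42.6 and Id4 at 17.6 RPKM. Id3 was thus the highest member per length in both, and the levels of Id1 and Id2 were close to each other in WT cells.

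The first comparison asked whether the Id genes responded to blocking ALK5 and to blocking ALK2 in D/KO cells. All 4 Id genes rose with each of Repsox, Vactosertib and A83-01, from 1.69-fold for Id3 with Vactosertib to 7.81-fold for Id4 with A83-01, while 0 of 4 passed the test with DMH-1. In each of these 3 ALK5-directed treatments Id4 had the largest fold of the members, followed by Id2, Id1 and Id3, an order that was not itself tested. The share of all 15164 genes tested that were called higher was 13.4% with Repsox, 11.8% with Vactosertib and 16.4% with A83-01, and 9.75% were called in either direction with DMH-1. Calls are at an adjusted p under 0.05 by edgeR's quasi-likelihood F-test with Benjamini-Hochberg adjustment over all genes tested. Scaled by library totals alone, the share of higher calls among all called genes moved from 53% to 69.8% with Repsox, from 53.5% to 70.4% with Vactosertib, from 50.3% to 67.8% with A83-01 and from 61.1% to 74.4% with DMH-1, and no called Id gene changed its direction.

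Id4, the member best known from neural and bone precursor cells, held 17.9, 16.4 and 17.8 CPM in the D/KO controls. It reached 135, 141 and 113 CPM with Repsox, 101, 102 and 93.8 CPM with Vactosertib, and 136, 133 and 138 CPM with A83-01. With DMH-1 it held 17.7, 14.1 and 15.1 CPM. Every library of the 3 ALK5-directed treatments lay above every control, and the DMH-1 libraries overlapped the controls. The log2 differences from control were 2.90 ± 0.11 with Repsox (SE, adjusted p = 1.68e-11), 2.52 ± 0.11 with Vactosertib (adjusted p = 1.07e-10) and 2.97 ± 0.11 with A83-01 (adjusted p = 8.87e-12). With DMH-1 it was −0.14, with a 95% interval from −0.37 to 0.09 (adjusted p = 0.493). Id4 ranked 11, 14 and 16 by p among the genes tested with Repsox, Vactosertib and A83-01.

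Id2, which pairs with E proteins in many lineages and binds the retinoblastoma protein, held 13.2, 14.5 and 9.50 CPM in the controls. With Repsox it held 41.9, 65.6 and 46.0 CPM, with Vactosertib 42.7, 38.6 and 47.1 CPM and with A83-01 57.5, 52.1 and 56.8 CPM. The DMH-1 libraries, at 15.6, 13.5 and 14.7 CPM, overlapped the controls, and the other treated libraries did not. The log2 differences were 2.04 ± 0.18 (adjusted p = 2.22e-07), 1.79 ± 0.18 (adjusted p = 1.23e-06) and 2.16 ± 0.18 (adjusted p = 7.35e-08) with Repsox, Vactosertib and A83-01. For DMH-1 the log2 difference was 0.24, with an interval from −0.13 to 0.61 (adjusted p = 0.475).

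Id1, the member most often used as a readout of BMP signalling, held 21.6, 18.05 and 18.9 CPM in the controls. It held 42.5, 81.3 and 42.0 CPM with Repsox, 40.6, 39.7 and 52.4 CPM with Vactosertib and 69.8, 43.5 and 56.4 CPM with A83-01. In the DMH-1 libraries it held 14.4, 13.0 and 16.1 CPM, all below the lowest control. The log2 differences were 1.50 ± 0.25 with Repsox (adjusted p = 0.000301), 1.19 ± 0.25 with Vactosertib (adjusted p = 0.00255) and 1.53 ± 0.25 with A83-01 (adjusted p = 0.000165). The DMH-1 difference of −0.43 had an interval from −0.97 to 0.11 (adjusted p = 0.354). Fitted on the DMH-1 and control libraries alone, it passed the test at the same −0.43 (adjusted p = 0.0391), whereas in the fit of all 6 groups it did not.

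Id3, the highest member, held 98.4, 93.4 and 91.0 CPM in the controls. With Repsox it held 141, 265 and 148 CPM, with Vactosertib 154, 142 and 179 CPM, with A83-01 208, 185 and 207 CPM, and with DMH-1 84.5, 72.8 and 94.6 CPM. The DMH-1 libraries overlapped the controls, and every other treated library lay above them. The log2 differences were 0.97 ± 0.20 with Repsox (adjusted p = 0.00206), 0.76 ± 0.20 with Vactosertib (adjusted p = 0.0128), 1.08 ± 0.21 with A83-01 (adjusted p = 0.000571) and −0.16 with DMH-1 (interval −0.60 to 0.27, adjusted p = 0.714). The call with Vactosertib was lost without the third Vactosertib library (0.66, adjusted p = 0.059).

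The second Repsox library was the highest of its group for Id1, Id2, Id3 and Id4. Without it the 4 differences with Repsox were 1.11, 1.82, 0.61 and 2.83 for Id1, Id2, Id3 and Id4, and all 4 still passed the test. In the second DMH-1 library the summed level of 10 interferon-stimulated genes was 1113 CPM, beside 71.5 and 79.8 in the other DMH-1 libraries and 29.2 to 32.8 in the controls. Without that library the DMH-1 differences of the Id genes were −0.35, 0.30, −0.07 and −0.07, and 3 of 9 interferon-stimulated genes tested were called higher in place of 9 of 9. The glial markers Sox10 and S100b were also higher with inhibitors, and Sox10 was so with DMH-1 too. Sox10 had mean levels of 3.63 CPM in the controls, 7.36 with Repsox, 6.96 with Vactosertib, 10.2 with A83-01 and 6.47 with DMH-1, and was called higher with all 4 inhibitors. S100b had mean levels of 0.749, 3.30, 2.17, 2.87 and 1.30 CPM in the same order and was called higher with all but DMH-1. The 5 endothelial markers summed to 290 to 332 CPM in the controls, 229 to 374 with Repsox, 264 to 337 with Vactosertib, 319 to 411 with DMH-1 and 141 to 181 with A83-01, where 4 of 5 were called lower and Tek higher. The part of these markers in the Id result was not tested. The 6 proliferation genes summed to 83.3 to 88.5 CPM in the controls, 42.1 to 54.4 with Repsox, 40.3 to 46.2 with Vactosertib, 25.9 to 36.7 with A83-01 and 43.4 to 53.1 with DMH-1, so every treated library lay below the controls.

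**Figure D1:**
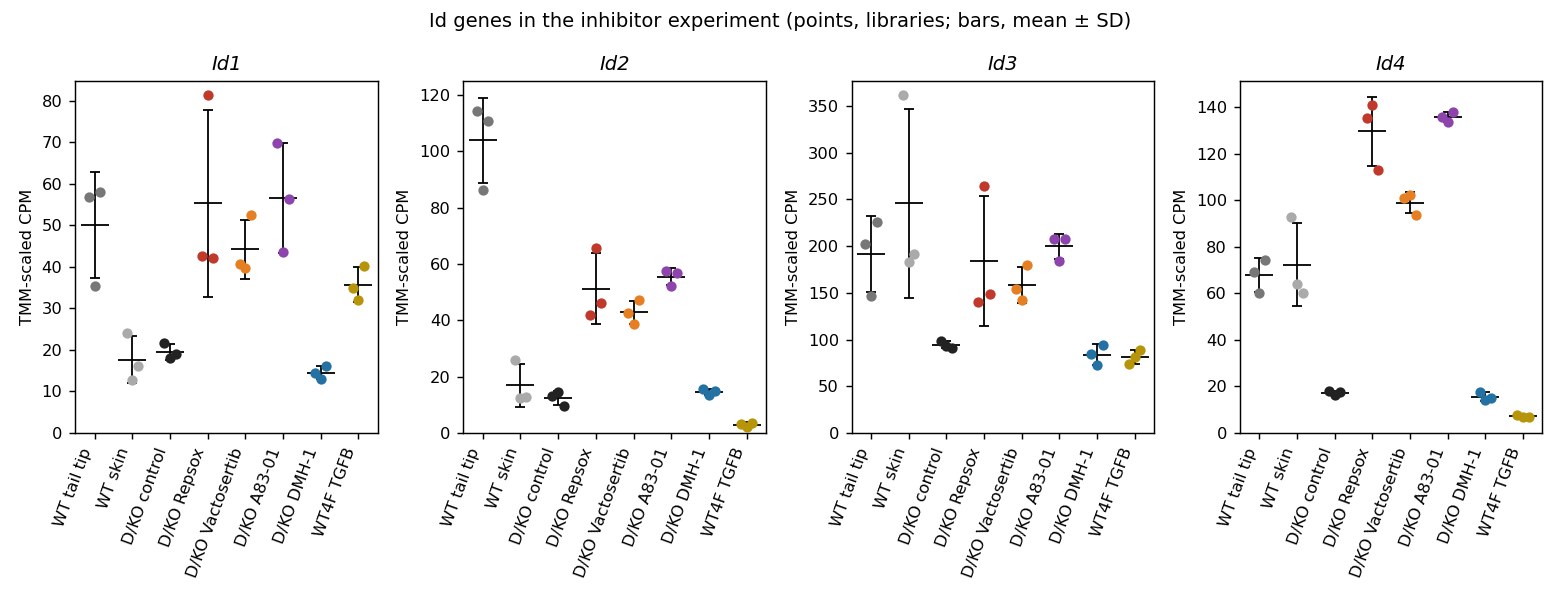
Level of each Id gene in TMM-scaled CPM (linear axis from 0) in every library of the inhibitor table, by group, with bars at the mean ± SD of the 3 libraries. For all 4 genes the Repsox, Vactosertib and A83-01 libraries sit above the D/KO controls, and the DMH-1 libraries sit within or below the control range for Id1, Id3 and Id4.

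Doses matched within 2 pairs of compounds, and both pairs were compared directly. At 1 uM, the ALK5 inhibitor A83-01 gave more of all 4 Id genes than the ALK2 inhibitor DMH-1, while 11.9% of all genes tested were called higher (higher calls were 47.1% of all calls and 60.7% with library totals). The differences in log2 were 1.96 ± 0.26 for Id1 (3.89-fold, adjusted p = 2.22e-05), 1.92 ± 0.17 for Id2 (3.78-fold, adjusted p = 3.51e-07), 1.25 ± 0.21 for Id3 (2.37-fold, adjusted p = 0.00023) and 3.11 ± 0.11 for Id4 (8.62-fold, adjusted p = 1.2e-11). By p, Id4 ranked 5 among all genes tested in this pair. Without the second DMH-1 library the 4 differences were 1.88, 1.86, 1.15 and 3.03, each still past the test.

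At 0.1 uM, Repsox and Vactosertib differed in 0 of 4 Id genes and in 0% of all genes tested by edgeR, with 452 genes at an unadjusted p under 0.05 and 8 genes called by DESeq2. Repsox minus Vactosertib was 0.31 for Id1 (interval −0.21 to 0.83), 0.25 for Id2 (−0.10 to 0.60), 0.21 for Id3 (−0.22 to 0.64) and 0.38 for Id4 (0.16 to 0.60), each at an adjusted p of 1. The interval for Id4 does not include 0, and its 3 Repsox libraries all lay above the 3 Vactosertib libraries. Without the second Repsox library the differences were −0.08, 0.03, −0.15 and 0.31, so the order of the pair for Id1 and Id3 rested on that library. Repsox or Vactosertib at 0.1 uM and DMH-1 at 1 uM differ in dose, so their values stand side by side above with no comparison.

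**Figure D2:**
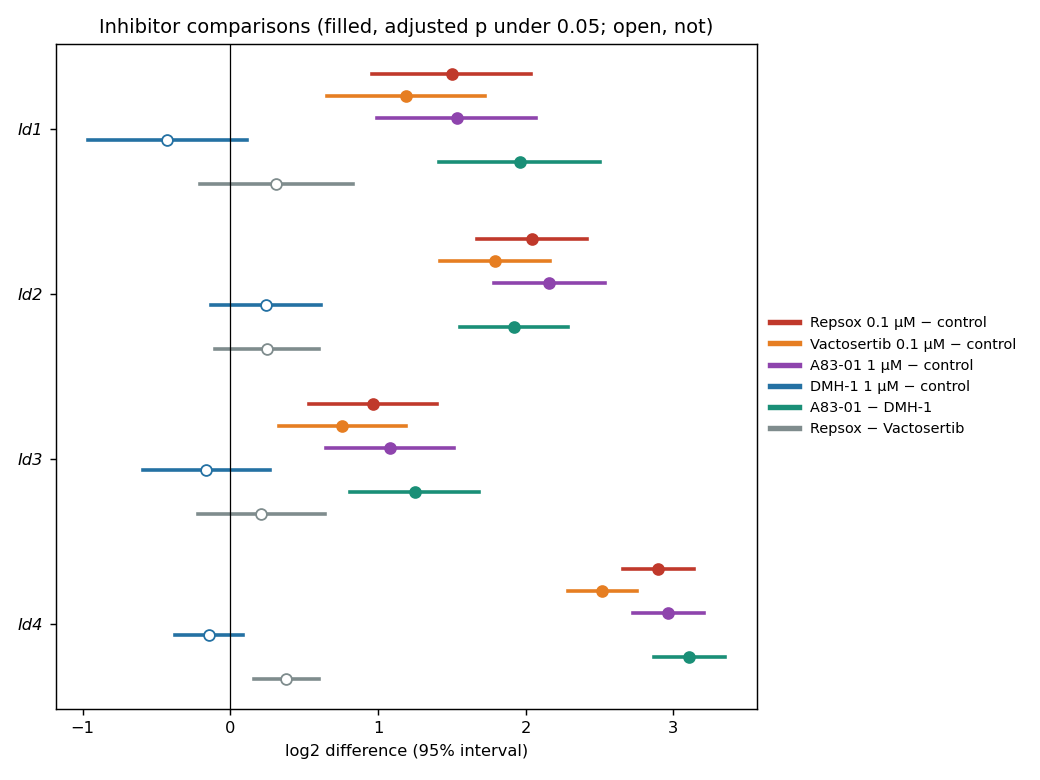
Log2 difference of each Id gene with its 95% interval, for each inhibitor against the D/KO control and for the 2 pairs at matched dose. Filled points passed the test at an adjusted p under 0.05. The ALK5-directed treatments lie right of 0 for all 4 genes, and the DMH-1 intervals all include 0.

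The next comparison asked how the untreated cells of the mutant differed from WT cells. All 4 Id genes were lower in the libraries labelled D/KO than in the WT tail tip controls, where 18.9% of all genes tested were called lower. Id2 differed most, with 114, 86.4 and 111 CPM in WT and 12.4 ± 2.58 CPM (SD, n = 3) in D/KO. Its log2 difference was −3.05 ± 0.18 (8.28-fold lower, adjusted p = 8.56e-10). Id4 was at 69.0, 60.1 and 74.4 CPM in WT, Id1 at 56.9, 35.3 and 58.1 CPM, and Id3 at 202, 146 and 226 CPM. The log2 differences were −1.95 ± 0.11 for Id4 (adjusted p = 3.85e-10), −1.34 ± 0.25 for Id1 (adjusted p = 0.000425) and −1.01 ± 0.21 for Id3 (adjusted p = 0.000835). No WT library overlapped the D/KO controls for any member, and how many of all genes stood apart in this way was not counted. Genotype goes with the animal and its age here, and these cannot be told apart. The endothelial markers moved the other way, as given above, and so did the mean of the glial marker Sox10. The part of these markers in the difference was not tested.

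Set beside WT, the A83-01 group held 56.6 CPM of Id1 against 50.1, 55.5 of Id2 against 104, 200 of Id3 against 191 and 136 of Id4 against 67.8 (means, n = 3). Id2 thus remained under the lowest WT library in every ALK5-directed library, and Id4 exceeded the highest WT library in all of them. These 2 comparisons share the D/KO controls, and no test was made of the treated against the WT cells.

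WT fibroblasts of skin and of tail tip, from mice of the same labelled genotype, sex and age, differed in 2 of the 4 members, with 16.1% of the 15652 genes tested called lower in skin (higher calls were 52.9% of all calls and 37.7% with library totals). Skin cells held a mean of 17.7 ± 5.74 CPM of Id1 (SD, n = 3) and 25.8, 12.4 and 12.8 CPM of Id2. These lay below all tail tip libraries, by −1.50 ± 0.26 for Id1 (adjusted p = 0.000119) and −2.61 ± 0.25 for Id2 (adjusted p = 5.96e-08). Id3 at 362, 183 and 192 CPM and Id4 at 92.6, 64.1 and 60.1 CPM overlapped the tail tip libraries. Their differences of 0.36 for Id3 (interval −0.13 to 0.85) and 0.09 for Id4 (−0.19 to 0.38) were not called and became −0.03 and −0.13 without the first skin library, while Id1 and Id2 were at −1.79 and −3.05 without it and kept their calls. The endothelial markers summed to 167 to 240.6 CPM in skin and 73.4 to 91.2 in tail tip, with 4 of 5 called higher in skin and Tek lower, and Sox10 was called higher in skin (means of 4.88 and 0.195 CPM). Their part in the Id differences was not tested. The 3 libraries labelled TGFB, of WT 4F cells, held 34.9, 31.9 and 40.3 CPM of Id1, 3.25, 2.03 and 3.53 of Id2, 74.0, 81.2 and 88.5 of Id3 and 7.90, 6.87 and 6.69 of Id4. For Id2 and Id4 each of these libraries lay below every library of the other groups of the table.

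The reprogramming table followed the Id genes over 4 days while doxycycline switched on the 4 factors. Every group of days 2 and 4 had doxycycline, so the factors, doxycycline itself and days in culture cannot be told apart. In D/KO cells Id1 rose by day 2 and 3 of the 4 members were higher at day 4, while in WT cells none was called higher without VC. At day 2 of D/KO, 1 of 4 was called higher, beside 14.3% of the 15832 genes tested, and at day 4 3 of 4, beside 18.3%. In WT cells 0 of 4 were called at day 2, beside 10.6% called in either direction, and at day 4 Id2 was called lower, beside 12.8% called lower. With library totals the share of higher calls moved from 52% to 67.5% at day 2 of D/KO and from 49.4% to 67.6% at day 4, and each called Id gene kept its direction.

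Id1 went from 37.1, 25.5 and 25.1 CPM at day 0 of D/KO to 88.8, 84.4 and 60.6 CPM at day 2 and 178, 213 and 95.1 CPM at day 4. None of the libraries of the 3 days overlapped. The log2 difference from day 0 was 1.42 ± 0.29 at day 2 (2.67-fold, adjusted p = 0.000252) and 2.47 ± 0.30 at day 4 (5.55-fold, adjusted p = 1.42e-08). In WT it held 67.3, 44.6 and 35.6 CPM at day 0, 78.9, 69.0 and 58.4 at day 2 and 43.1, 43.0 and 42.6 at day 4. The WT differences were 0.48 (interval −0.09 to 1.06) and −0.20 (interval −0.77 to 0.38).

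Id2 stayed near its day 0 level of 10.8, 14.3 and 14.97 CPM at day 2 of D/KO, with 14.8, 14.2 and 20.4 CPM, and reached 36.3, 41.7 and 41.5 CPM at day 4. Only the day 4 libraries stood clear of day 0, at a log2 difference of 1.57 ± 0.19 (2.98-fold, adjusted p = 1.33e-08). WT cells began higher, at 41.2, 37.5 and 35.4 CPM, and held 32.0, 31.6 and 23.3 at day 2 and 22.6, 27.5 and 29.6 at day 4. That fall of −0.52 ± 0.18 passed at day 4 (adjusted p = 0.032), but the call was lost without the first or second library of either day, with adjusted p up to 0.164.

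Id3 held 120, 105 and 118 CPM at day 0 of D/KO, 127, 128 and 125 at day 2 and 220, 235 and 169 at day 4. It rose at day 4 by 0.86 ± 0.23 (1.82-fold, adjusted p = 0.00237). In WT it held 198, 191 and 188 CPM at day 0, 279, 268 and 211 at day 2 and 162, 204 and 197 at day 4. Neither WT difference of Id3 was called, although every day 2 library lay above those of day 0. The day 2 difference of 0.39 passed with no filter on low counts (adjusted p = 0.0156) and with only the groups compared (adjusted p = 0.0492), and Id1 at day 2 of WT also passed with no filter (adjusted p = 0.00228).

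Id4 was at 37.5, 31.9 and 39.4 CPM at day 0 of D/KO, 27.1, 24.7 and 34.8 at day 2 and 42.4, 39.3 and 60.3 at day 4. The day 4 difference of 0.38 ± 0.18 did not pass (adjusted p = 0.0974), and these libraries overlapped day 0. It did pass with library totals (0.56, adjusted p = 0.0174), with no filter on low counts (0.39, adjusted p = 0.0339) and without the second day 4 library (0.50, adjusted p = 0.0477). From day 2 to day 4, however, all 4 members rose in D/KO, beside 4.5% of all genes called higher (higher calls were 47% of all calls and 59.3% with library totals). These differences were 1.06 for Id1, 1.27 for Id2, 0.72 for Id3 and 0.71 for Id4 (adjusted p = 0.0107, 6.11e-06, 0.0366 and 0.00822). Leaving out single libraries ended 3 of these calls. Id1 lost it without the third day 2 or the first or second day 4 library (0.90, 0.99 and 0.81), Id3 without any day 2 library or the first or second day 4 library (0.61 to 0.73), and Id4 without the second day 2 or the third day 4 library (0.61 and 0.50). Id2 kept its call throughout. In WT none of the 4 was called from day 2 to day 4, with Id1 at −0.68 (interval −1.26 to −0.10, adjusted p = 0.0828), beside 21.5% of all genes called in either direction. With only the groups compared, or with no filter, Id1 and Id3 were called lower there (−0.66 and −0.41 with only those groups).

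**Figure D3:**
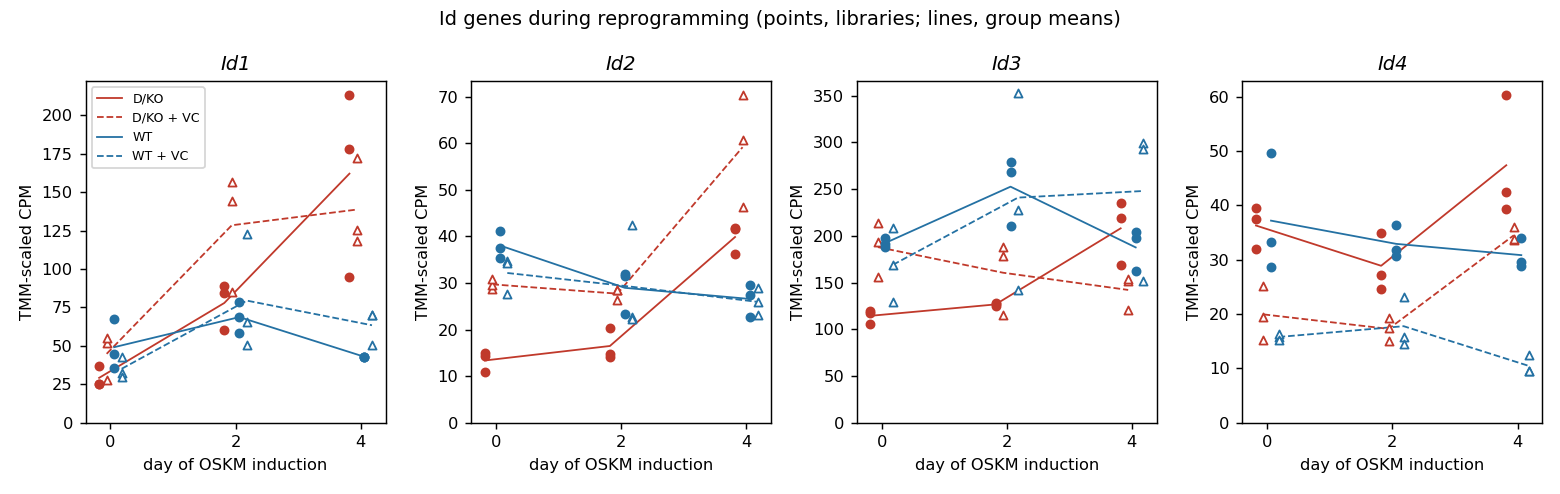
Level of each Id gene in TMM-scaled CPM (linear axis from 0) in every library of the reprogramming table, by day, for D/KO and WT cells with and without VC. Lines join the means of 3 libraries. Id1 and Id2 climb to day 4 in D/KO without VC and do not in WT, and Id4 lies lower with VC in both genotypes.

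Whether the change over 4 days differed between the genotypes was tested directly, as the D/KO change minus the WT change. At day 4 without VC it differed for Id1 by 2.67 ± 0.41 (adjusted p = 1.14e-05) and for Id2 by 2.09 ± 0.26 (adjusted p = 2.96e-07), beside 7.27% of all genes called in that direction. For Id3 the difference was 0.90 (interval 0.25 to 1.54, adjusted p = 0.0529) and for Id4 0.65 (interval 0.13 to 1.18, adjusted p = 0.0871). At day 2 it passed for 0 of 4 members without VC, beside 6.54% of genes called in either direction, and for 0 of 4 with VC, beside 13.9%. With library totals the share of higher calls in these differences moved from 50.8% to 73.9% at day 4 without VC, from 52.4% to 72.8% and from 49.5% to 70.2% at day 2 without and with VC, and all 4 members passed at day 4 without VC. There Id3 also passed with only the groups compared (0.90) or without the third D/KO day 4 library (1.03), and Id4 without the third WT day 0 library (0.81). Genotype goes with the reprogrammable line, sex and age in this table, and these cannot be told apart. In sum, the endothelial markers fell from 586 to 710 CPM at day 0 to 327 to 345 at day 4 in D/KO and were at 14.6 to 17.3 and 95.3 to 95.7 CPM in WT. Epithelial markers were at 3.03 to 5.01 CPM at day 0 and 47.2 to 69.8 at day 4 in D/KO, and at most 1.28 CPM in WT without VC, where Cdh1, Krt5, Krt14, Krt8 and Krt18 were at 0 at day 0. The part of these markers in the Id differences was not tested.

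With VC throughout, Id1 rose in D/KO from 51.8, 55.1 and 27.6 CPM at day 0 to 144, 157 and 84.8 at day 2 and 119, 172 and 125 at day 4. No day 2 or day 4 library fell to the day 0 range, and the log2 differences were 1.52 ± 0.29 (adjusted p = 3.95e-05) and 1.63 ± 0.29 (adjusted p = 1.06e-05). Id2 was at 28.7, 29.5 and 30.9 CPM, then 26.3, 28.4 and 28.4, then 46.3, 60.8 and 70.4, a rise of 0.99 ± 0.18 by day 4 (adjusted p = 1.59e-05). For Id4 the levels were 19.5, 15.1 and 25.2 CPM, then 15.1, 17.5 and 19.3, then 33.6, 33.9 and 36.03, a rise of 0.79 ± 0.19 (adjusted p = 0.000579). Id3 was at 214, 194 and 156, then 188, 179 and 115, then 121, 151 and 154 CPM, and its difference of −0.40 at day 4 did not pass (interval −0.86 to 0.05), though it did with only the groups compared (−0.41, adjusted p = 0.0284). Set against day 0 without VC instead, the day 4 difference of Id4 was −0.07 and that of Id3 0.31, and at day 2 that of Id2 was 1.05. So, against day 0 with VC, 1 of 4 was called higher at day 2, beside 23.8% of all genes, and 3 of 4 at day 4, beside 27.9%. Between day 2 and day 4 with VC, Id2 rose by 1.09 and Id4 by 1.00 in D/KO, beside 7.76% of all genes. Over the same days the endothelial markers went from 198 to 222 CPM to 383 to 514 CPM in sum, with 4 of 5 called higher and Emcn lower, and their part in the rise of Id2 and Id4 was not tested. With library totals the share of higher calls in these 3 comparisons moved from 50.2% to 71.2%, from 51.6% to 74.4% and from 49.7% to 67.8%.

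In WT with VC, Id1 was at 42.6, 32.7 and 30.1 CPM at day 0, 123, 65.4 and 50.4 at day 2 and 50.3, 69.9 and 70.1 at day 4. The differences were 1.18 ± 0.29 at day 2 (adjusted p = 0.00186) and 0.85 ± 0.29 at day 4 (adjusted p = 0.0155). The first was lost without the first day 2 library (0.72, adjusted p = 0.0659). Set against day 0 without VC, Id1 differed by 0.69 at day 2 (adjusted p = 0.0521) and by 0.37 at day 4 (adjusted p = 0.32), so neither passed. Id3 rose by 0.55 at day 4 (adjusted p = 0.0433), with libraries that overlapped day 0 (0.37 and not called against day 0 without VC), and Id4 fell by 0.59 (adjusted p = 0.0152), while the share of all genes called was 22.7% higher and 22% lower. At day 2, Id1 alone of the 4 members was called, beside 13.8% called higher. Id3 gained a call there with library totals (0.63) or without the first day 0 or the third day 2 library (0.69 and 0.78), and Id2 was called lower without the first day 2 library (−0.51). With library totals the share of higher calls moved from 50.3% to 68.1% at day 2 and from 50.8% to 75.7% at day 4. From day 2 to day 4, Id4 fell by 0.76 (adjusted p = 0.00585), beside 10.1% of all genes called lower and with higher calls at 49.6% and, with library totals, 78.2%, and this call was lost without the first day 2 library (−0.53). The calls of Id1, Id3 and Id4 at day 4 were each lost without one or more single libraries (the third day 0, the second or the third day 4 library for Id1, the second or the third of either day for Id3, and the first or the third day 4 library for Id4), that of Id3 also by DESeq2 and that of Id4 also with library totals (−0.31, adjusted p = 0.218). The endothelial markers summed to 4.73 to 7.08 CPM at day 0 with VC, 94.7 to 102.0 at day 2 and 98.1 to 116.1 at day 4, where of the 5 Tek alone was called higher on either day and Pecam1 was called lower at day 4. The interferon-stimulated genes summed to 197 to 723 CPM at day 0 with VC, 66.6 to 238 at day 2 and 56.5 to 83.6 at day 4, with 8 of 9 called lower at day 2 and 9 of 9 at day 4. Xist, a sex-linked gene, also differed by day in these WT cells with VC. It was at 53.1 to 125, 42.1 to 110 and 615 to 729 CPM of the library total at days 0, 2 and 4. Without VC it was at 315 to 466, 209 to 359 and 463 to 571 CPM on the same days. The part of these genes in the Id changes was not tested. With VC the D/KO change over 4 days minus the WT change was 1.30 ± 0.26 for Id2 (adjusted p = 0.000178), 1.38 ± 0.27 for Id4 (adjusted p = 0.000205) and −0.96 ± 0.32 for Id3 (adjusted p = 0.0211), beside 13.9% of all genes higher and 15.5% lower, with higher calls at 47.4% and, with library totals, 58.1%. For Id1 it was 0.78 (interval −0.04 to 1.60). The Id3 call was lost without the first D/KO library of either day, the third WT day 0 library or the second or the third WT day 4 library (−0.85 to −0.80).

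**Figure D4:**
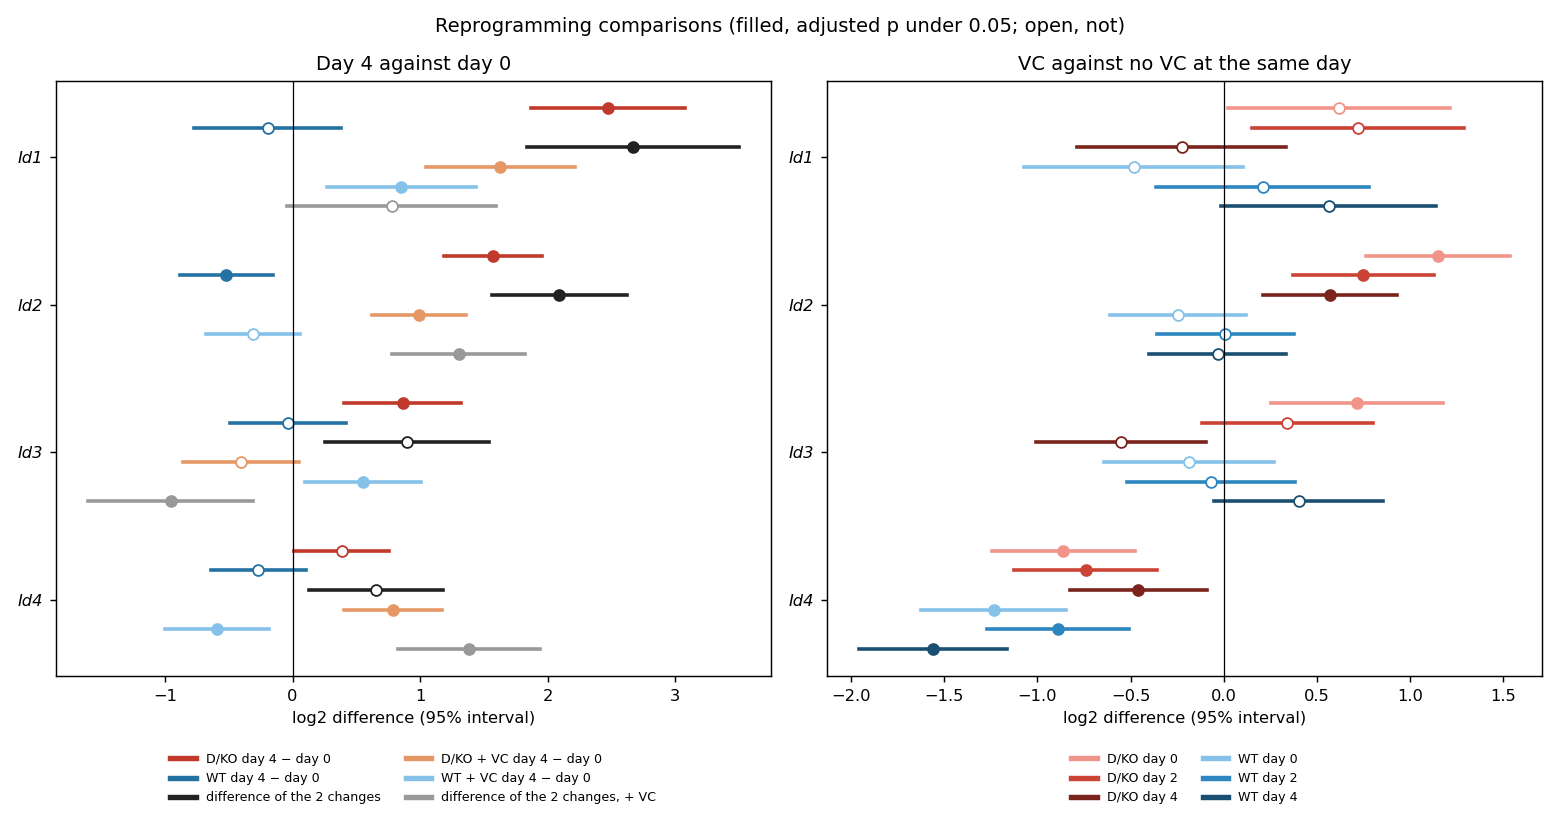
Log2 difference of each Id gene with its 95% interval for day 4 against day 0 in D/KO and WT cells with and without VC, with the D/KO change minus the WT change (left), and for VC against no VC on the same day (right). Filled points passed the test at an adjusted p under 0.05, the difference between the genotypes is largest for Id1 and Id2 without VC (2.67 and 2.09), and all 6 VC differences of Id4 lie left of 0.

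VC was also compared with no VC on the same day, of which day 0 was free of doxycycline. Id4 was lower with VC in all 6 comparisons, at days 0, 2 and 4 of both genotypes. At day 0, before any doxycycline, it fell by 0.86 on the log2 scale in D/KO (adjusted p = 0.000606) and by 1.23 in WT (adjusted p = 4.08e-06), where the libraries with VC held 15.7, 16.3 and 15.3 CPM and those without 49.7, 33.2 and 28.6 CPM. On day 2 it fell by 0.74 in D/KO and by 0.89 in WT (adjusted p = 0.00311 and 0.000484), and on day 4 by 0.46 and by 1.56 (adjusted p = 0.0483 and 1.23e-07). In WT at day 4 this was from 34.1, 29.5 and 28.9 CPM to 9.47, 12.5 and 9.47 CPM. The D/KO call at day 4 was lost without the third D/KO day 4 library or any library with VC (−0.49 to −0.25), and also with library totals, with DESeq2 size factors or with only the groups compared (−0.47 to −0.44). Genes called lower were 14%, 14.2% and 17.7% of all genes at days 0, 2 and 4 in D/KO and 14.4%, 13% and 10.4% in WT. With library totals the share of higher calls moved from 46.4% to 22.9% at day 0 of D/KO, from 51.2% to 17.1% at day 0 of WT and from 50.9% to 25.4% at day 2 of WT. The endothelial markers moved too. In D/KO they summed to 586 to 710 CPM without and 215 to 256 with VC at day 0, 467 to 547 and 198 to 222 at day 2, and 327 to 345 and 383 to 514 at day 4. In WT the sums were 14.6 to 17.3 and 4.73 to 7.08 CPM at day 0, 61.7 to 66.5 and 94.7 to 102.0 at day 2, and 95.3 to 95.7 and 98.1 to 116.1 at day 4. The glial marker S100b was called lower with VC in 5 of the 6 comparisons (not at day 2 of WT) and Sox10 in 2, at days 2 and 4 of D/KO. The part of these markers in the Id4 result was not tested.

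Id2 was higher with VC on each day in D/KO, by 1.15 ± 0.19, 0.75 ± 0.19 and 0.57 ± 0.18 at days 0, 2 and 4 (adjusted p = 1.26e-05, 0.00246 and 0.0113), beside 12.1%, 11.1% and 16.8% of all genes called higher. In WT its differences were −0.24 (interval −0.61 to 0.12), 0.01 (−0.36 to 0.38) and −0.03 (−0.40 to 0.34), and none was called, though with library totals that at day 0 was (−0.54). The D/KO call at day 4 was lost without the first day 4 or the third day 4 VC library (0.50 and 0.42). Id3 passed in 1 of the 6, higher with VC at day 0 of D/KO by 0.72 ± 0.23 (adjusted p = 0.0166), a call lost without the second day 0 (0.66) or the first day 0 VC library (0.61), and also with library totals (0.54, adjusted p = 0.0666). Id1 passed in none of the 6, with differences from −0.48 in WT at day 0 to 0.72 in D/KO at day 2. The D/KO difference at day 2 passed with only the groups compared (adjusted p = 0.00602), with DESeq2 size factors (adjusted p = 0.047), with no filter and without the third day 2 VC library (0.95, adjusted p = 0.0187), and that at day 0 with no filter and without the third day 0 VC library (0.87, adjusted p = 0.0354). In WT, Id1 gained a call at day 0 (−0.50) and at day 4 (0.54) with only the groups compared, and at day 0 with library totals (−0.78). Id3 gained one at day 4 of D/KO with only the groups compared (−0.56) or without the third day 4 library (−0.68), and at day 4 of WT without the first VC library (0.66). In WT, the day 0 VC libraries had 723, 197 and 380 CPM of interferon-stimulated genes in sum, and the day 0 libraries without VC 74.4 to 81.4. Whether the effect of VC differed between the genotypes was not tested.

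Among the other genes of the BMP pathway, listed by role, the remaining targets are described first. Of 8 further BMP and SMAD targets, 6 were called higher with Repsox, 5 with Vactosertib and 6 with A83-01, and 0 lower. With DMH-1, 1 was called higher and 3 lower. Beside the shares called higher given above, 11.8%, 10.3% and 16.2% of all genes were called lower with Repsox, Vactosertib and A83-01, and with DMH-1 5.96% were called higher and 3.79% lower. The median log2 difference of the 8 was 1.23, 1.20, 1.24 and −0.32 in that order, beside a median over all genes of 0.02, 0.01, 0.00 and 0.00. Atoh8, a transcription factor induced by BMP, differed by 2.32, 2.18, 2.77 and −0.64. Smad6, which encodes an inhibitory SMAD of the BMP branch, differed by 1.30, 1.28, 1.73 and −0.08, of which the last was not called. Smad9, which encodes SMAD8, differed by 1.86, 1.77, 2.17 and −0.67. Hey1, a target shared with Notch, differed by 2.19, 1.88, 2.45 and −0.18, the last again not called. Smad7, the inhibitory SMAD of both branches, was called with DMH-1, at −0.60, and with none of the others, and Msx1 rose there by 0.84. Without the second DMH-1 library 2 of the 8 were called lower, at a median of −0.23, and without the second Repsox library 5 were called higher with Repsox. By DESeq2 1 target was also called lower with Vactosertib.

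**Figure D5:**
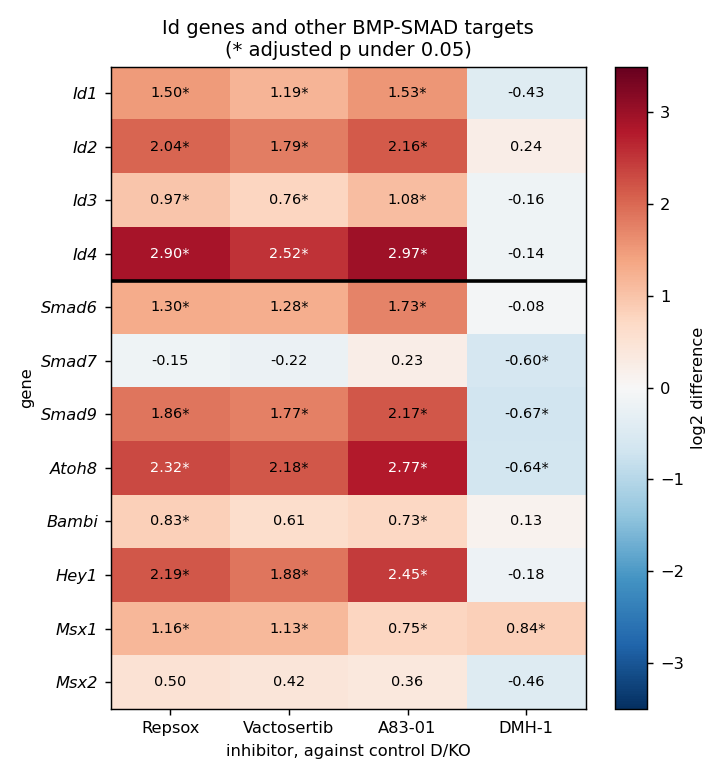
Colour grid of the log2 difference from the D/KO control, printed in each cell with a star where the adjusted p was under 0.05, for the 4 Id genes and 8 further BMP and SMAD targets (rows) with each inhibitor (columns). Id4, Atoh8, Id2, Hey1 and Smad9 lie highest with A83-01, and no gene but Msx1 was called higher with DMH-1.

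In the D/KO controls against WT, 3 of these 8 targets were called lower, namely Atoh8 (−1.82), Smad9 (−1.14) and Smad6 (−1.08), and 3 higher, among them Msx2 (2.27). Over all genes 18.9% were called lower and 21.3% higher. The median of the 8 was −0.29, beside 0.01 for all genes. At day 4 of D/KO without VC, 3 of the 8 were called higher, Smad6 by 0.81, Smad9 by 1.21 and Atoh8 by 0.67, and Bambi was called lower at −0.63. Over all genes 18.3% were called higher and 18.7% lower. With library totals 0 of the 8 were called lower and 3 higher. Counts at the other time points of D/KO follow and were not tested against each other. At day 2, where Id1 rose, 0 of the 8 were called higher and 2 lower at a median of −0.30, beside 14.3% of all genes called higher and 13.2% lower. With VC throughout, 2 of the 8 were called higher and 4 lower at day 2, at a median of −0.60. At day 4 with VC 2 were also higher and 4 lower, at a median of −0.33. Over all genes 23.8% were called higher and 23.6% lower at day 2, and 27.9% and 26.2% at day 4. The 2 higher of 8 are close to those shares. With library totals the counts of the 8 were 1 higher and 2 lower at day 2, 2 and 2 at day 2 with VC and 3 and 1 at day 4 with VC. In WT at day 4, 0 of the 8 were called higher, beside 11.7% of all genes, and 2 lower, beside 12.8%.

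Of 9 BMP ligand genes, 4 were expressed enough to be tested in the inhibitor table. Bmp2, Bmp4 and Bmp6 were called higher with each ALK5-directed treatment, and with DMH-1 all 4 were, beside 13.4%, 11.8%, 16.4% and 5.96% of all genes called higher with Repsox, Vactosertib, A83-01 and DMH-1. Bmp4 differed by 1.92, 1.33, 1.30 and 0.66 with Repsox, Vactosertib, A83-01 and DMH-1, and Bmp6 by 1.59, 1.47, 1.79 and 1.91. Bmp2 differed by 2.03, 2.12, 2.31 and 3.27. Gdf6 was called only with DMH-1, at 2.05. Without the second DMH-1 library 4 of 5 ligand genes tested were called higher with DMH-1. The part of the ligand transcripts in the Id differences was not tested.

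Of 8 BMP receptor genes, 3 were called lower with Repsox, 2 with Vactosertib and 4 with A83-01, beside 11.8%, 10.3% and 16.2% of all genes. With each of these, 1 was called higher, beside 13.4%, 11.8% and 16.4% of all genes. With DMH-1 0 of 8 were called, beside 9.75% of all genes called in either direction. Acvr1, which encodes ALK2, was called lower with Repsox (−0.64), Vactosertib (−0.53) and A83-01 (−0.77), and Bmpr1b was also lower in each (−2.01, −1.47 and −2.21). With DMH-1 they were at −0.24 and −0.35. Tgfbr1, which encodes ALK5, was lower by 0.58, 0.54 and 1.01 and was at −0.06 with DMH-1. The transcripts of Smad1, Smad4 and Smad5, which carry the BMP signal, were called with 0 of the 4 inhibitors.

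Of 9 BMP antagonist genes tested, 4 were called higher and 4 lower with Repsox, 4 higher and 3 lower with each of Vactosertib and A83-01, and 0 higher and 3 lower with DMH-1. The shares over all genes were 13.4% higher and 11.8% lower with Repsox, 11.8% and 10.3% with Vactosertib, 16.4% and 16.2% with A83-01 and 5.96% and 3.79% with DMH-1. Their products bind BMPs or activins outside the cell or at its surface. Chrdl1 differed by 2.75, 2.37 and 3.03 with Repsox, Vactosertib and A83-01, and Fst by 1.78, 1.34 and 1.51. Bmper fell with the same 3 (−1.10, −0.89 and −1.44). With DMH-1 Fst was called lower, at −0.57, and Chrdl1 at 0.55 and Bmper at 0.01 were not called.

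As a readout of the other branch, 9 of 12 TGFb target genes were called lower with Repsox, 9 with Vactosertib and 11 with A83-01, and with DMH-1 7 were lower and 1 higher, or 7 lower and 0 higher without the second DMH-1 library. Over all genes 11.8%, 10.3%, 16.2% and 3.79% were called lower with Repsox, Vactosertib, A83-01 and DMH-1, and 5.96% higher with DMH-1. Tgfbi, a matrix gene named for its induction by TGFb, differed by −2.73, −2.41 and −2.92 with the ALK5-directed treatments and by −0.61 with DMH-1. Pmepa1, a feedback inhibitor, differed by −1.35, −1.24, −1.80 and 0.32. At day 4 of reprogramming without VC, 11 of 12 were lower in D/KO, beside 18.7% of all genes, and in WT 9 were lower and 1 higher, beside 12.8% lower and 11.7% higher. With library totals 10 were lower and 1 higher in D/KO.

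Of 7 E protein and basic helix-loop-helix genes tested, the partners that Id proteins bind or oppose, 2 were called higher with Repsox, 2 with Vactosertib and 3 with A83-01, and 1 lower with each. With DMH-1 1 was called higher and 0 lower. Over all genes 13.4%, 11.8%, 16.4% and 5.96% were called higher and 11.8%, 10.3%, 16.2% and 3.79% lower with Repsox, Vactosertib, A83-01 and DMH-1, so 1 lower of 7 is close to those shares. Twist1 differed by 1.05, 1.11 and 1.10, Twist2 by 0.73, 0.61 and 0.95, and Scx, a tendon factor, by −2.07, −1.54 and −1.59. With DMH-1 Twist1 was higher by 0.40, and Twist2 at 0.46 and Scx at −1.11 were not called. Of 3 genes known to be repressed by Id proteins, Cdkn1a, which encodes the cell cycle inhibitor p21, was called higher with each of Repsox (0.32), Vactosertib (0.38), A83-01 (0.43) and DMH-1 (0.33). Cdkn2a and Thbs1 were not called with any.

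Genes whose pattern was most like that of a member were found by Pearson's r of log2 CPM over the group means, given as a description with no test. Over the 8 groups of the inhibitor table, Id4 was followed most closely by Maoa (r = 0.984), Atoh8 (0.983) and Klf6 (0.983), Id2 by St3gal1 (0.989), 5530601H04Rik (0.989) and Ssbp2 (0.984), Id1 by Fgfrl1 (0.942), Net1 (0.938) and Gm34934 (0.921), and Id3 by 1110059G10Rik (0.982), Uba52rt (0.981) and Chchd7 (0.962). Between members r ran from 0.430 for Id1 with Id3 to 0.907 for Id3 with Id4. Over the 12 groups of the reprogramming table it ran from −0.269 for Id3 with Id4 to 0.512 for Id1 with Id2. The closest genes there were Gsta4 for Id1 (0.971), Gpm6b for Id2 (0.838), Zc3h12a for Id3 (0.884) and Xpnpep2 for Id4 (0.922).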

How the data were processed

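RNA from 60 libraries was read in 2 tables. The authors deposited unnormalised counts for each gene, obtained through FastQC, Trim Galore, HISAT2 on GRCm39 and featureCounts of Subread (versions, annotation release and strand setting not given in the sources used here). Of 56980 identifiers, 56236 (98.7%) were found in GENCODE M39, which gave the symbols. Groups follow the sample labels. Each table was scaled by TMM on its own and tested in edgeR 4.0.16 under R 4.3.3 (two-sided quasi-likelihood F-test, a coefficient per group, filterByExpr with a minimum count of 10 and total of 15, Benjamini-Hochberg within a contrast) on 18 and 24 inhibitor libraries (15164 and 15652 genes) and 36 reprogramming libraries (15832 genes). The standard error was the log2 difference over the root of F. CPM are TMM-scaled unless said otherwise, and the tables were not tested against each other. Overlap of libraries between groups was read for the Id genes only, with no share over all genes. Wherever an adjusted p is printed it is edgeR's, or DESeq2 1.42.0's where named.

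Between replicates the variance was 3.25 to 60.3 times counting noise in the reprogramming table and 4.26 to 397 times in the inhibitor table, so no libraries were counted as duplicates. Whether depth limited the calls was not tested. On simulated counts for A83-01 against control, 65% of genes changed 2-fold and 84.7% of those changed 4-fold were recovered, with 8 false calls over 14869 genes.

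Members and gene lists were chosen with earlier results of these data known. Beside the Id genes, at most 4 genes a list and contrast were named, by smallest p, and the 3 with the highest correlation over group means (for the reprogramming table the first is printed). Alternatives were DESeq2, its size factors in edgeR, library totals, no filter or a strict filter, only the groups compared, all 24 libraries, an absolute log2 difference of at least 1, another day 0 baseline, and each library left out. Single genes of 2 lists are not reported here.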

Additional observations from a re-analysis of the deposited data

Results flagged for a closer look

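Of the 16 differences between the D/KO change and the WT change, 5 passed the test of the difference itself. At day 4 without VC the change of Id1 was larger in D/KO than in WT by 2.67 on the log2 scale and that of Id2 by 2.09, and no single library left out ended either call. At day 4 with VC the change of Id2 was larger in D/KO by 1.30 and that of Id4 by 1.38, while that of Id3 was −0.96, with a rise in WT and a difference in D/KO that was not called. By edgeR the adjusted p of these 5 ran from 2.96e-07 for Id2 at day 4 without VC to 0.0211 for Id3, and the call of Id3 was lost in 5 of the 12 fits that left out 1 library. The D/KO cells came from 8-week-old males of the 4FJ ERCC1 (d/-) line and the WT cells from 22-week-old females of the 4FJ (+/-) OCT4-GFP line, so genotype, reprogrammable line, sex and age cannot be told apart.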

How the results depend on the processing

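Over the 1700 alternatives for a single gene and comparison, 1538 kept the direction and the side of the threshold, 69 lost the call, 50 gained one and 43 reversed. The calls of all 4 Id genes with A83-01, of A83-01 over DMH-1 and of D/KO against WT controls held under every alternative run, and those with Repsox and Vactosertib did except for Id3. Id3 was lost with an absolute log2 difference of at least 1 required and, with Vactosertib, also without 1 library. The number of Id genes called was within 1.5 times in 375 of 425 alternatives. Of 80 mean levels by group, 13 moved by more than 1 SD with library totals. No paired analysis was possible because the replicate numbers follow the order of the samples and the labels carry none. The cause of the changes below was not tested.

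Requiring an absolute log2 difference of at least 1 left 1 Id gene called (3 otherwise) in D/KO at day 4 with VC, 0 in WT at day 4 (1 otherwise) and at day 4 with VC (3 otherwise), 2 of 4 from day 2 to day 4 in D/KO, 1 of 2 there with VC and 0 of 1 in WT with VC. For VC against no VC it left 1 of 3 at day 0, 0 of 2 at day 2 and 0 of 2 at day 4 of D/KO and 0 of 1 at day 2 of WT. With no filter on low counts, 2 were called in WT at day 2 (0 with it), 2 at day 2 with VC (1) and 2 from day 2 to day 4 (0). For VC against no VC there were then 4 at day 2 of D/KO (2), 2 at day 0 of WT (1) and 3 at day 4 of WT (1), and for the D/KO change minus the WT change 2 at day 2 (0), 1 at day 2 with VC (0) and 4 at day 4 (2). Fitting only the groups compared called 1 with DMH-1 (0), 1 in WT at day 2 (0), 2 from day 2 to day 4 of WT (0), and 2 for VC at day 0 and 2 at day 4 of WT (1 each). With library totals, which moved the median over all genes to between −0.29 and 0.38 on the log2 scale, 2 were called in WT at day 2 with VC (1), 1 for VC at day 4 of D/KO (2), 3 for VC at day 0 of WT (1) and 4 for the genotype difference at day 4 (2). DESeq2 size factors in edgeR called 1 for VC at day 4 of D/KO (2). With day 0 without VC as the baseline, 3 were called in D/KO at day 2 with VC (1), of which Id1 and Id2 were higher and Id4 lower (−1.07, adjusted p = 1.38e-05 by edgeR).

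With that baseline the differences in D/KO were 1.05 for Id2 and 0.49 for Id3 at day 2 with VC (−0.10 and −0.23), 0.31 for Id3 and −0.073 for Id4 at day 4 with VC (−0.40 and 0.79), and in WT −1.07 for Id4 at day 2 with VC (0.17). Id2 was then at 2.14 in D/KO at day 4 with VC (0.99), and in WT at day 4 with VC Id4 was at −1.83 (−0.59) and Id2 gained a call at −0.55 (adjusted p = 0.0141). Calls lost in WT with that baseline were Id1 at day 2 with VC, at 0.69 (1.18), and Id1 and Id3 at day 4 with VC, both at 0.37 (0.85 and 0.55). With library totals they were 0.16, 0.028 and 0.045 for Id2, Id3 and Id4 in D/KO at day 2 with VC, −0.061 for Id4 in skin against tail tip and −0.17 for Id2 with VC at day 2 of WT. The last was −0.0072 with at least 10 counts in every library and −0.0056 with only the groups compared.

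With 1 library left out at a time, the number called ran from 1 to 2 in WT at day 2 with VC, from 0 to 1 in WT at day 4, from 0 to 3 there with VC, from 2 to 3 from day 2 to day 4 of D/KO, from 0 to 1 in WT with VC over the same days, from 0 to 2 and from 1 to 2 for VC at day 4 of D/KO and of WT, and from 0 to 1 for the genotype difference at day 2 with VC. Repsox minus Vactosertib ran from −0.082 to 0.48 for Id1 and from −0.15 to 0.37 for Id3, and skin minus tail tip from −0.029 to 0.53 for Id3 and from −0.13 to 0.21 for Id4. In WT, Id4 ran from −0.33 to 0.092 at day 2, Id2 from −0.51 to 0.018 and Id4 from −0.058 to 0.30 at day 2 with VC, and Id1 from −0.38 to 0.10 and Id3 from −0.10 to 0.064 at day 4. From day 2 to day 4 with VC, Id1 ran from −0.12 to 0.28 in D/KO, and in WT Id1 ran from −0.57 to 0.13, Id2 from −0.33 to 0.20 and Id3 from −0.23 to 0.42. For VC against no VC, Id1 ran from −0.50 to 0.023 at day 4 of D/KO, Id1 from −0.25 to 0.45, Id2 from −0.36 to 0.17 and Id3 from −0.45 to 0.20 at day 2 of WT, and Id2 from −0.14 to 0.049 at day 4 of WT. The genotype difference at day 2 ran from −0.42 to 0.0049 for Id4 and, with VC, from −0.12 to 0.41 for Id2.

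Over all genes, an absolute log2 difference of at least 1 kept 14.3% to 49.7% of the calls in the 29 comparisons with any. Fitting only the groups compared gave 2256 calls with Repsox (3820), 2591 for skin (5348), 6400 for WT at day 4 (3880) and 2523 for VC at day 0 of D/KO (4140). Leaving out 1 library brought DMH-1 to between 847 and 971 (1479), without a control library or the second DMH-1 library, and D/KO from day 2 to day 4 to 970 (1515), without the first day 4 library. It also brought WT at day 2 to 1110 without the first day 0 library and 1067 without the second day 2 library (1672), and WT from day 2 to day 4 with VC to 1731 (3176), without the first day 2 library. WT from day 2 to day 4 gave 1103 calls without the second day 2 library and 2123 to 2252 without a day 4 library (3406).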
